A study of Mus musculus with 4 samples.

Results

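Nuclear-encoded oxidative phosphorylation (OXPHOS) genes were chosen by name: every gene of the count tables whose symbol starts as those of the subunits of complexes I to V do (Nduf with A, B, C, S or V, Sdha to Sdhd, Uqcr, Cox4 to Cox8 and Atp5), pseudogenes left out. This gave 84 of 24054 genes, with 37 in complex I, 4 in complex II, 8 in complex III, 18 in complex IV and 17 in complex V. RNA-seq was made from wild-type mouse embryonic stem (ES) cells of the line wt26 (1 library) and from 3 Morc3 rescue clones, T131-3C, T131-3D and T131-3M, here called 3C, 3D and 3M (1 library each). All cells were grown without feeders in serum and LIF. The clones descend from a single Morc3 ko line of wt26 that received a wild-type Morc3 cDNA by PiggyBac transposition under puromycin selection, and each was grown from an individual colony. Wild type had neither the ko nor the transgene, and the ko line itself was not analysed here, so effects of the ko, the transgene and the cloning cannot be told apart.

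The respiratory chain sits in the inner mitochondrial membrane. Complex I (NADH dehydrogenase) and complex II (succinate dehydrogenase) pass electrons to ubiquinone, complex III (cytochrome bc1) passes them to cytochrome c, complex IV (cytochrome c oxidase) passes them to oxygen, and complex V (ATP synthase) makes ATP from the proton gradient. Most subunits are encoded in the nucleus and a few core ones of complexes I, III, IV and V in mitochondrial DNA, none of which is listed in the count tables. Mouse ES cells in serum and LIF respire but rely strongly on glycolysis.

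The promoters of 5 genes are shown as examples, chosen with the values known: 4 of the 6 genes on chromosome 13, which split the clones, and Cox6a1, which had the lowest p. They are the RefSeq windows of GRCm38.p6, from 250 bases before to 50 bases after the start of the gene, all on the minus strand and written 5′ to 3′ in the direction of transcription. Capitals mark 3 motifs of factors known to act at OXPHOS promoters: GCGCA and GCGC with any single base between them (NRF1), CCGGAAG (ETS family, such as GABPA) and AAGATGGC (YY1), each searched on both strands. Sdha is at chr13:74350191-74350490, Uqcrfs1 at chr13:30545267-30545566, Ndufs6 at chr13:73328433-73328732, Cox7c at chr13:86046746-86047045 and Cox6a1 at chr5:115348909-115349208.
Sdha: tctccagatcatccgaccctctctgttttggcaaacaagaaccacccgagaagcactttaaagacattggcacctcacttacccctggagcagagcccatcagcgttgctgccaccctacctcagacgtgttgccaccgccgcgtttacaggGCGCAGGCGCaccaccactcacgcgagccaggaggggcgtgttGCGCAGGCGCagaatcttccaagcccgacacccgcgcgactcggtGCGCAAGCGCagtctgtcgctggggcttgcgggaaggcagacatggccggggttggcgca
Uqcrfs1: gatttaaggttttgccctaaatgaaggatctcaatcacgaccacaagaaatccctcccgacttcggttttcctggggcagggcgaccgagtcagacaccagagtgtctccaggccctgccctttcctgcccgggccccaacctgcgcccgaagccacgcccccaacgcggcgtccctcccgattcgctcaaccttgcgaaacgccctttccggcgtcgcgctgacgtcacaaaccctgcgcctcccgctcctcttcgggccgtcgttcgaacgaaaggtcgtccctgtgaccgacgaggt
Ndufs6: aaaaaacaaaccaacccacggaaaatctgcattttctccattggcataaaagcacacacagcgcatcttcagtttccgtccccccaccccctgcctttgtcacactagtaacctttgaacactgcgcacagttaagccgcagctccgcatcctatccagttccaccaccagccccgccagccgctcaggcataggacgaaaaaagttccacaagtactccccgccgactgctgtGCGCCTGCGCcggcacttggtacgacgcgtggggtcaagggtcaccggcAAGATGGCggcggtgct
Cox7c: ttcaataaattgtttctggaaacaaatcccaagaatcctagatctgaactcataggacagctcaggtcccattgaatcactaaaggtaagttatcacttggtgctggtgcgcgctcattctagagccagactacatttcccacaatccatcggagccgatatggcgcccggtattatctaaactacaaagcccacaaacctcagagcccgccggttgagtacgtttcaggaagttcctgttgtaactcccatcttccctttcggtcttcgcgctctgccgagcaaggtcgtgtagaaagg
Cox6a1: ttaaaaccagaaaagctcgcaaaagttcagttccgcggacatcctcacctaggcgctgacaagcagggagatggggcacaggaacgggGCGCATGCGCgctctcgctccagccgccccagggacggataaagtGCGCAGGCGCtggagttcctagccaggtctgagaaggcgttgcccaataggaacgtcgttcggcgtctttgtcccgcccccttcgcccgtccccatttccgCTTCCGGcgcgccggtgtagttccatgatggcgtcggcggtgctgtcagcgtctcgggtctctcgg

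Sdha held 3 NRF1 motifs, Cox6a1 held 2 NRF1 motifs and 1 ETS motif, and Ndufs6 held 1 NRF1 and 1 YY1 motif. No match lay in the windows of Uqcrfs1 and Cox7c. RefSeq windows were found for 69 of the 84 genes, and 38 of these, 55.1%, held at least 1 of the 3 motifs, beside 16.4% of all 27025 genes with windows of the same length and 32.2% of the 9855 tested genes that had one. The NRF1 motif was in the windows of 24.6% of the OXPHOS genes (5.19% of all genes, 11.5% of tested ones), the ETS motif in 23.2% (9.93% and 19.9%) and the YY1 motif in 15.9% (3.19% and 5.23%). By complex, a motif was found for 17 of 32 genes of complex I, in 3 of 3 of complex II, in 3 of 5 of complex III, in 3 of 13 of complex IV and in 12 of 16 of complex V. The fitted change in the clones had a median log2 value of 0.01 over the 16 tested genes with an NRF1 motif and −0.02 over the 50 without it. For the ETS motif the medians were 0.0038 (16 genes with it) and −0.010 (50 without). For the YY1 motif they were −0.039 (11 with it) and 0.00064 (55 without).

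The libraries held 18789457 counts on genes in wild type compared with between 13620914 and 15479190 in the clones. Unmapped read pairs were 14.5% of all in wild type compared with between 21.0% and 23.0% in the clones, and the part of this difference in the results was not tested. Morc3, the targeted gene, had 161 CPM (counts scaled to library size with edgeR's TMM factors) in wild type against 655, 497 and 609 in 3C, 3D and 3M, higher in 3 of 3 clones by 1.87 ± 0.17 (log2, SE; edgeR's quasi-likelihood test, adjusted p = 0.108), counting endogenous and transgene reads together. All 12 ES cell markers were detected, with a summed level of 5703 CPM in wild type compared with between 5933 and 6396 in the clones. All clones were above wild type for 5 of them and below for 2 (28.7% and 28.4% of all genes). Nanog had 300 CPM in wild type against 468, 358 and 481 in 3C, 3D and 3M (edgeR, unadjusted p = 0.0227, adjusted p = 0.405). Fgf4 had 168 CPM against 191, 201 and 198 (unadjusted p = 0.0174, adjusted p = 0.373). Of 10 fibroblast markers, Col3a1, Lum, Dcn and Twist2 had no count in any library. Their sum was 37.3 CPM in wild type compared with between 25.6 and 50.4 in the clones. Most of it was Thy1, with 31.7 CPM in wild type against 43.7, 18.6 and 22.7 in 3C, 3D and 3M. Pdgfrb had 4.35 CPM and Col1a1 1.15 in wild type, and Col1a2, Acta2 and Postn had at most 3 counts in any library. The 12 markers of the germ layers summed to 12.8 CPM in wild type compared with between 12.4 and 17.4 in the clones. With 1 wild-type library, the error comes from the 3 clones alone with the same variation taken to hold for wild type. In bulk RNA, fewer cells of a type and less RNA per cell cannot be told apart.

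No OXPHOS gene passed the test between rescue and wild type. Of the 84 genes, 79 had enough counts to be tested, and 0 were called by edgeR at an adjusted p under 0.01, where 0.00754% of all 13267 genes were called (1 gene). At an unadjusted p under 0.05 there were 6 OXPHOS genes: Cox6a1, Cox6c and Ndufs6 were higher in the clones, and Ndufa2, Atp5e and Atp5g3 lower. That is 7.59% of those tested, and the share among all genes was 10.3% (5.92% higher and 4.42% lower). DESeq2 called 1 OXPHOS gene, Cox6a1, or 1.23% of the 81 it fitted, some of which, such as Cox4i2, got no adjusted p. It called 0.658% of the 9727 genes to which it gave an adjusted p. Leaving out clone 3D gave 4 calls by edgeR, Sdha, Uqcrb, Uqcrfs1 and Cox6a1, or 5.06% of 79, beside 3.17% of all genes (420 genes). Leaving out 3C gave 0 calls among them (0.00756% of all genes), as did leaving out 3M (0% of all genes).

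Most OXPHOS transcripts were close to the wild-type level. The fitted log2 fold change had a median of −0.01 over the 79 tested genes and 0.01 over all genes, and 63 of them (79.7%) were under 0.2 in size, beside 60.0% of all genes. OXPHOS transcripts were also more abundant than the typical gene, with a median of 59.4 CPM against 20.7. All 3 clones lay above wild type for 19 genes and below it for 25, 24.1% and 31.6% of those tested, beside 28.7% and 28.4% of all genes. The other 35 had clones on both sides or level with wild type. Summed over the 84 genes, the level was 7897 CPM in wild type against 8034, 8032 and 7983 in 3C, 3D and 3M, a rescue mean of 8016 ± 29.0 (SD, n = 3), or 102% of wild type and 99.4% without TMM scaling, so the side of wild type depended on the scaling.

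**Figure D1:**
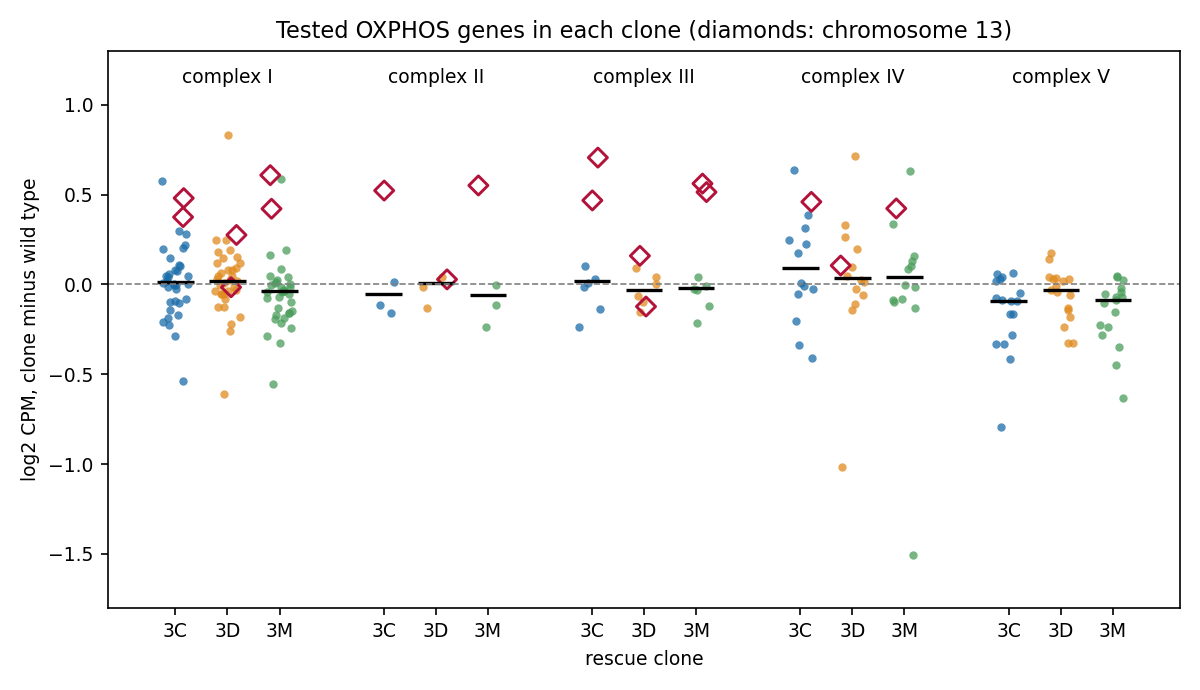
Difference in log2 CPM (prior count 2) between each rescue clone and the wild-type library, one point per tested OXPHOS gene, grouped by respiratory complex. Black lines are medians, dashed grey marks wild type, and open diamonds are the 6 genes on chromosome 13, which lie between 0.37 and 0.71 in 3C, between 0.42 and 0.61 in 3M and between −0.12 and 0.27 in 3D.

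Complex I takes electrons from NADH and was carried by 36 tested genes, with a median log2 fold change of −0.00072. In the order 3C, 3D and 3M the median difference from wild type was 0.01, 0.02 and −0.04, so the clones lay on both sides. The clones were above wild type in 3 of 3 for 9 genes and below for 11, beside 28.7% and 28.4% of all genes. The summed level was 1833 CPM in wild type against 1877, 1871 and 1821 in the clones, a mean of 1856 ± 30.6 (SD, n = 3), or 101% of wild type and 99.2% without TMM scaling.

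The 7 nuclear core subunits, which hold the flavin and iron-sulphur clusters, all had fitted log2 fold changes under 0.2 in size. Ndufs1 had 194 CPM in wild type against 183, 189 and 189 in 3C, 3D and 3M. Ndufv1, the flavin-bearing subunit, had 86.0 CPM in wild type against 86.2, 78.8 and 77.1 in the clones. None of the core genes had an unadjusted p under 0.05, and the fitted log2 values ran from −0.18 (Ndufs3) to 0.14 (Ndufs8), with Ndufv2 at 0.11, Ndufs7 at −0.04, Ndufs1 at −0.05 and Ndufv1 at −0.09. Per kilobase of transcript, Ndufa4 (155 CPM per kb over the 4 libraries) and Ndufa7 (135) had the highest levels in the complex, and the former is now counted as a complex IV subunit.

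Ndufa2, an accessory subunit of the NADH-binding arm, had the lowest fitted value in complex I. It had 16.9 CPM in wild type (323 counts) and 11.6, 11.1 and 11.5 in 3C, 3D and 3M (between 157 and 178 counts). The clones lay close together and all below wild type. The log2 fold change was −0.57 ± 0.14 (SE; edgeR, unadjusted p = 0.00635, adjusted p = 0.284), which did not pass. Its 18 tested neighbours within 500 kb had a median log2 fold change of −0.07.

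Ndufa4l2, a relative of Ndufa4 induced by low oxygen in other tissues, was at the low end of the complex. It had 41 counts in wild type against 44, 57 and 51 in the shallower clone libraries, which is 2.15 CPM and 3.26, 3.92 and 3.29. All clones were above wild type, with a log2 fold change of 0.70 ± 0.28 (SE; edgeR, unadjusted p = 0.0522, adjusted p = 0.489). Ndufs5, an accessory subunit present in complex I of all tissues, was listed at 0 in all 3 count columns of every library, so the tables give no measure of its level.

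Complex II passes electrons from succinate and consists of the 4 subunits Sdha to Sdhd. Sdhb, the iron-sulphur subunit, had 77.5 CPM in wild type against 69.5, 76.7 and 65.6 in 3C, 3D and 3M. Sdhc, a membrane anchor, had 102 CPM in wild type against 94.4, 93.4 and 94.4 in the clones. Both had all clones below wild type, with log2 fold changes of −0.14 ± 0.11 and −0.12 ± 0.07 (SE) and edgeR adjusted p of 0.695 and 0.604. Sdhd, the other anchor, had 70.5 CPM in wild type against 71.1, 72.5 and 70.3 in the clones, which lay on both sides of it.

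Sdha, the flavin-bearing subunit, was the exception within complex II. It had 232 CPM in wild type against 333, 236 and 339 in 3C, 3D and 3M. Clones 3C and 3M were high and 3D was near wild type. The fitted log2 fold change was 0.39 ± 0.21 (SE), with an edgeR adjusted p of 0.574. With 1 clone left out it was 0.54 without 3D, 0.31 without 3C and 0.30 without 3M. The counts of Sdha were 92.5% of the sum of Sdhb, Sdhc and Sdhd in wild type, 142% in 3C, 97.3% in 3D and 147% in 3M. The summed level of complex II was 482 CPM in wild type against 568, 479 and 570 in the clones, and without Sdha it was 250.3 CPM in wild type against 235, 243 and 230.3.

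Complex III was carried by 8 genes, with a median log2 fold change of −0.02. The core proteins Uqcrc1 and Uqcrc2 had 287 and 149 CPM in wild type. In the clones Uqcrc1 had 288, 269 and 285 CPM in 3C, 3D and 3M, and Uqcrc2 had 148, 154 and 147. For both, wild type lay within the range of the clones. Uqcrh, the hinge protein, had 73.1 CPM in wild type against 78.4, 69.9 and 75.4 in the clones. Per kilobase, Uqcrc1 (171 CPM per kb), Uqcrh (157) and Uqcr10 (139) had the highest levels. The summed level was 783 CPM in wild type against 833, 761 and 818 in the clones.

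Complex III also held a pair of genes that split the clones. Uqcrfs1, the Rieske iron-sulphur protein, had 68.1 CPM in wild type against 94.1, 62.5 and 97.2 in 3C, 3D and 3M. Uqcrb, the subunit near the ubiquinone-binding site, had 45.0 CPM in wild type against 73.4, 50.2 and 66.4 in the clones. For both, 3C and 3M were above 3D, and 3D lay below wild type for Uqcrfs1 and above it for Uqcrb. The log2 fold changes were 0.31 ± 0.25 and 0.49 ± 0.21 (SE), with edgeR adjusted p of 0.697 and 0.507. With 1 clone left out they were 0.49 and 0.63 without 3D, 0.23 and 0.38 without 3C, and 0.20 and 0.46 without 3M.

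**Figure D2:**
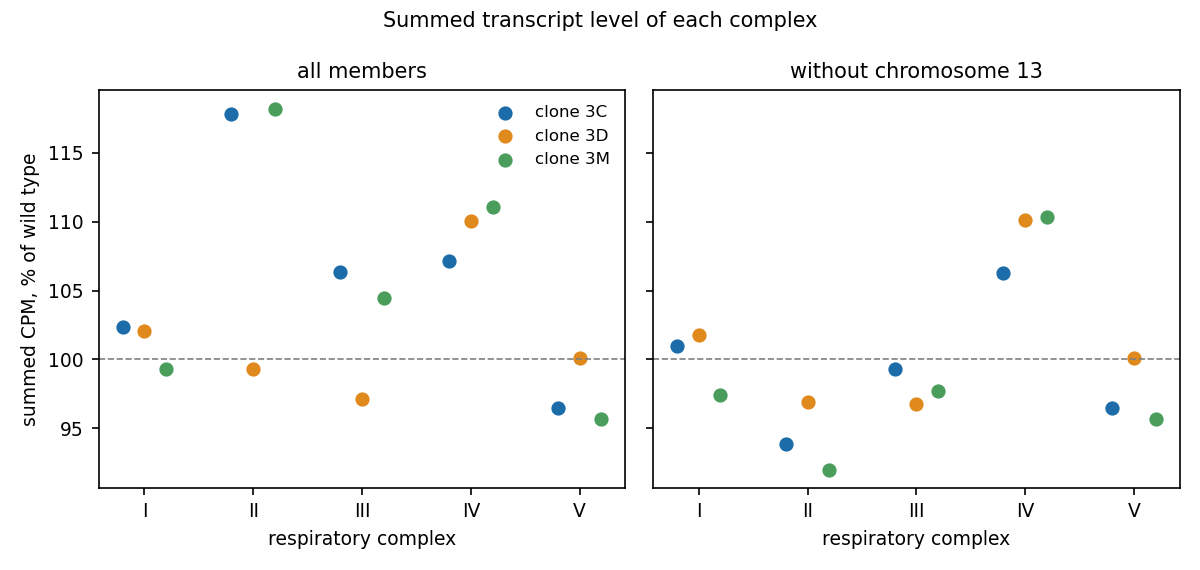
Summed CPM of the genes of each respiratory complex in every rescue clone, as a percentage of the wild-type library, for all genes (left) and without the genes on chromosome 13 (right). The vertical axis does not start at 0. Complex II reaches 118% in 3C and 3M with all genes and lies between 92.0% and 96.9% in the 3 clones without Sdha, while complex IV lies between 106% and 111% in both panels.

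Complex IV transfers electrons to oxygen and was the complex with the highest median, 0.07 on the log2 scale over 14 tested genes, and the median fell to 0.04 without 3C and rose to 0.10 without 3D. All clones were above wild type for 6 genes and below for 4, beside 28.7% and 28.4% of all genes. The summed level was 1189 CPM in wild type against 1275, 1309 and 1321 in 3C, 3D and 3M, above wild type in all, with a mean of 1301 ± 23.9 (SD, n = 3), or 109% of wild type. Part of this excess lay in Cox6a1, with 87.4 CPM in wild type against 136, 143 and 135 in the clones. In 3M part lay in Cox4i1, with 381 CPM in wild type against 379, 394 and 424. The median difference from wild type over the 14 genes was 0.090, 0.036 and 0.040 in 3C, 3D and 3M. Without Cox7c, on chromosome 13, it was 0.0051, 0.024 and −0.0032. The fitted median hardly changed, from 0.069 with Cox7c to 0.068 without it. Cox4i1 (522 CPM per kb over the 4 libraries), Cox6b1 (253) and Cox6a1 (220) had the highest levels per length.

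Cox6a1, a small regulatory subunit that contacts the membrane, had the lowest p of the OXPHOS genes. It had 87.4 CPM in wild type (1666 counts) and 136, 143 and 135 in 3C, 3D and 3M (between 1831 and 2098 counts). The clones stood together, well above wild type. The log2 fold change was 0.66 ± 0.08 (SE), or 1.58 times the wild-type level, with an edgeR unadjusted p of 0.000207 and an adjusted p of 0.113, so it did not pass at 0.01. DESeq2 gave an adjusted p of 0.000373, and edgeR gave adjusted p of 0.000686 without 3D, 0.0965 without 3C and 0.65 without 3M. Cox6a1 lies on chr5:115345652-115348958 of GRCm38.p6. Its 26 tested neighbours within 500 kb had a median log2 fold change of 0.35. For 17 of them all clones were above wild type, beside 28.7% of all genes.

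Cox6c, a small nuclear-encoded subunit of complex IV, showed a smaller difference in the same direction. It had 78.0 CPM in wild type against 92.6, 98.1 and 98.7 in 3C, 3D and 3M, all above wild type. The log2 fold change was 0.31 ± 0.08 (SE; edgeR, unadjusted p = 0.0108, adjusted p = 0.323), and its 5 tested neighbours within 500 kb had a median of 0.15. Cox6b1, which lies at the dimer interface, had 112 CPM in wild type against 130.6, 128 and 122 in the clones, with a log2 fold change of 0.19 ± 0.08 (SE; adjusted p = 0.494).

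Several subunits of complex IV have a common isoform and one restricted to a tissue such as heart, skeletal muscle, lung or testis. In all 4 libraries the common isoform was the higher one per length. Cox4i1 had 504 CPM per kb in wild type against 502, 521 and 562 in 3C, 3D and 3M, and Cox4i2, its lung isoform, had 2.08 in wild type against 1.52, 0.941 and 0.619. Cox7a2 had 102 CPM per kb in wild type compared with between 88.6 and 93.3 in the clones, and Cox7a1, its heart and muscle isoform, had 7.29 and between 6.73 and 9.12. Cox6b1 had 229 CPM per kb in wild type compared with between 251 and 269 in the clones, and its testis isoform Cox6b2 had 11.9 and between 11.1 and 15.7.

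Cox4i2 had the lowest fitted log2 fold change of all OXPHOS genes and the fewest counts of those tested: 29 in wild type against 15, 10 and 7 in 3C, 3D and 3M. All clones were below wild type, and the log2 fold change of −1.04 ± 0.49 (SE) had an edgeR unadjusted p of 0.0832 and an adjusted p of 0.539. Of the other restricted isoforms, Cox8b and Cox8c had no count in the column used, in any library, which allows up to 3 counts, or 0.157 CPM in wild type compared with between 0.194 and 0.223 in the clones. Cox6a2, the muscle isoform, had 1 count in wild type against 0 in the clones, and Cox7b2 had 4 counts in wild type against 1, 4 and 4 in 3C, 3D and 3M. The common isoforms Cox7b (87.6 CPM in wild type, 84.4, 86.0 and 82.4 in the clones) and Cox8a (77.4, and 77.7, 78.7 and 83.2) had fitted log2 fold changes of −0.06 and 0.05.

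**Figure D3:**
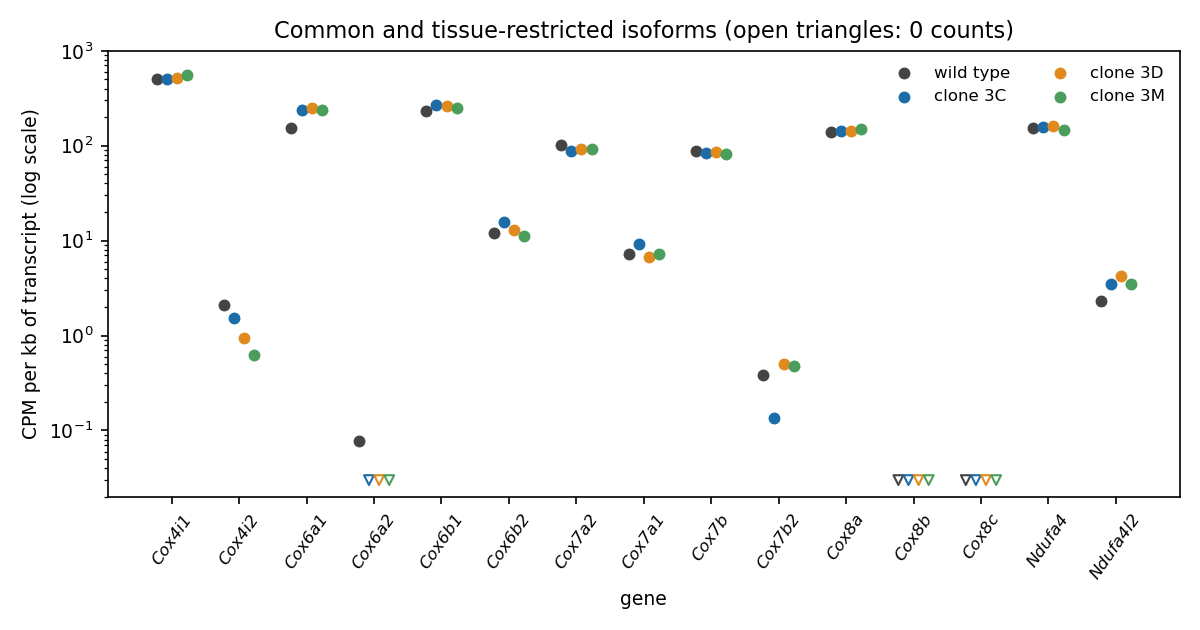
Level of the common and the tissue-restricted isoforms of complex IV subunits and of Ndufa4, in CPM per kb of transcript on a log axis, one point per library. Open triangles, drawn at an arbitrary height, are libraries with 0 counts, and each common isoform lies above its restricted partner in all 4 libraries.

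Complex V makes ATP and was read through the 17 genes with an Atp5 name, all tested. Their median was −0.07, the lowest among the complexes with all their genes counted (without the chromosome 13 genes, complex II was lower at −0.12). All clones were below wild type for 8 genes and above for 2, beside 28.4% and 28.7% of all genes. The 8 include Atp5s and Atp5sl, which were placed in complex V by name only. The summed level was 3609 CPM in wild type against 3482, 3613 and 3453 in 3C, 3D and 3M, a mean of 3516 ± 85.0 (SD, n = 3), or 97.4% of wild type, with 3D level with wild type.

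The F1 head, which holds the catalytic sites, had the OXPHOS transcript with the highest level per length, Atp5b. Atp5b, the catalytic beta subunit, had 1470 CPM in wild type against 1396, 1491 and 1418 in 3C, 3D and 3M. Atp5a1, the alpha subunit, had 907 CPM in wild type against 925, 901 and 896 in the clones. Clones lay on both sides of wild type for both. Atp5c1, the rotating gamma subunit, and Atp5d, the delta subunit, had log2 fold changes of 0.07 ± 0.10 and 0.03 ± 0.07 (SE). Per kilobase, Atp5b (754 CPM per kb), Atp5a1 (353) and Atp5o (252), the stalk subunit, had the highest levels of complex V.

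Atp5e, the small epsilon subunit of the same head, was the F1 gene that stood apart. It had 46.5 CPM in wild type against 36.9, 37.1 and 36.5 in 3C, 3D and 3M. The clones lay within 1 CPM of each other, all below wild type. The log2 fold change was −0.34 ± 0.09 (SE; edgeR, unadjusted p = 0.0108, adjusted p = 0.323).

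The c-ring, the rotor in the membrane, is built from 1 mature protein encoded by Atp5g1, Atp5g2 and Atp5g3. Atp5g3 had 142 CPM in wild type against 112, 120 and 120 in 3C, 3D and 3M, all below wild type, with a log2 fold change of −0.27 ± 0.08 (SE; edgeR, unadjusted p = 0.014, adjusted p = 0.344). Atp5g1 had 67.6 CPM in wild type against 63.8, 69.5 and 60.7 in the clones, on both sides of it. Atp5g2 had 20.6 CPM in wild type against 18.4, 19.8 and 16.9 in the clones, all below. The 3 genes together had 229.8 CPM in wild type against 195, 209 and 198 in the clones, 87.3% of wild type on average.

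Atp5k, a membrane subunit of the dimer interface, had 41.7 CPM in wild type against 31.3, 36.8 and 26.9 in 3C, 3D and 3M. All clones were below it, with a log2 fold change of −0.40 ± 0.17 (SE; edgeR adjusted p = 0.507). Atp5s, which matches the name pattern but is a coupling factor rather than a core subunit, had 68 counts in wild type against 27, 41 and 40 in the clones, and its log2 fold change was −0.52 ± 0.29 (SE; adjusted p = 0.574). Exons of Ndufb2, Ndufb8, Ndufb9 and Atp5o overlap those of another gene on the same strand, so their counts are uncertain.

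**Figure D4:**
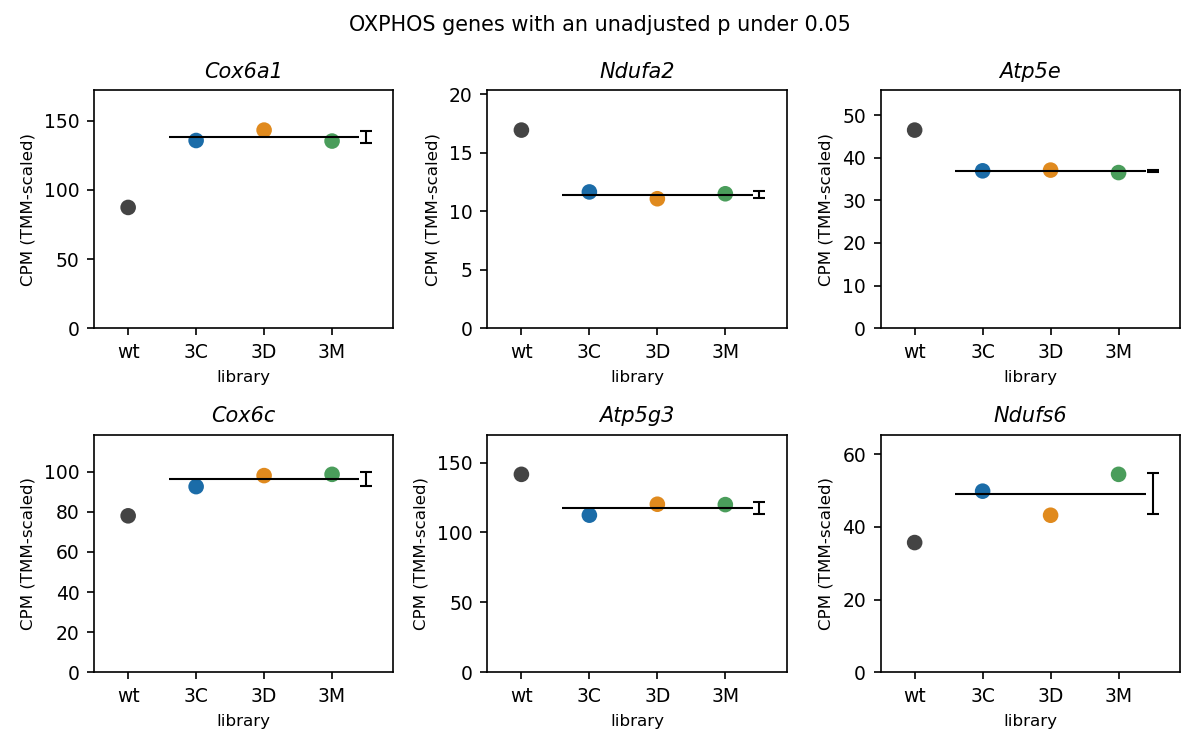
CPM of the 6 OXPHOS genes with an unadjusted p under 0.05, one point per library, with axes that start at 0. The line is the mean of the 3 rescue clones and the bar at its end the SD, and in each panel the wild-type point lies outside the range of the clones.

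The 6 OXPHOS genes of chromosome 13, from complexes I to IV, separated the clones from each other. They are Uqcrfs1 (chr13:30540312-30545316), Uqcrb (chr13:66900576-66905350), Ndufs6 (chr13:73319876-73328482), Sdha (chr13:74322255-74350240), Cox7c (chr13:86044798-86046795) and Ndufs4 (chr13:114287795-114388094), spread over the chromosome. Their median difference from wild type was 0.47 in 3C, 0.07 in 3D and 0.53 in 3M on the log2 scale. Over the other 73 tested OXPHOS genes, on the other 18 chromosomes that hold one, it was −0.0044, 0.0094 and −0.05. All 512 tested genes of chromosome 13 had medians of 0.48, 0.03 and 0.48, so these 6 stood where that chromosome as a whole did. No OXPHOS gene lies on chromosome 14.

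Ndufs6, an accessory subunit of complex I, had 35.7 CPM in wild type against 49.8, 43.2 and 54.5 in 3C, 3D and 3M. All clones were above wild type, with a log2 fold change of 0.46 ± 0.15 (SE; edgeR, unadjusted p = 0.0222, adjusted p = 0.403). Ndufs4, an accessory subunit whose loss causes a mitochondrial encephalopathy, had 41.0 CPM in wild type against 53.2, 40.5 and 54.9 in the clones. Here 3D was level with wild type, and the log2 fold change was 0.27 ± 0.18 (SE; adjusted p = 0.641). Cox7c, a small subunit of complex IV, had 34.5 CPM in wild type against 47.5, 37.1 and 46.3 in the clones, with a log2 fold change of 0.34 ± 0.16 (SE; adjusted p = 0.542).

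Clones 3C and 3M were both above 3D for 6 of the 6 chromosome 13 genes and for 12 of the 73 others (16.4%). The same held for 84.0% of all chromosome 13 genes and 36.4% of all genes. All 3 clones were above wild type for 4 of the 6 genes, where 51.4% of all tested chromosome 13 genes were. Relative to the counts of the partner subunits of their own complex that lie elsewhere, Uqcrfs1 was at 10.2% in wild type, 14.2% in 3C, 9.64% in 3D and 14.9% in 3M, and Uqcrb at 6.72%, 11.0%, 7.75% and 10.2%. Ndufs4 was at 2.33%, 3.00%, 2.27% and 3.21% and Cox7c at 2.99%, 3.87%, 2.92% and 3.63%. Ndufs6 was at 2.03%, 2.81%, 2.42% and 3.18%, with 3D between wild type and the other clones. In these 5 genes, as in Sdha, the proportion to partner subunits was higher in 3C and 3M than in wild type and in 3D. The cause was not tested.

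**Figure D5:**
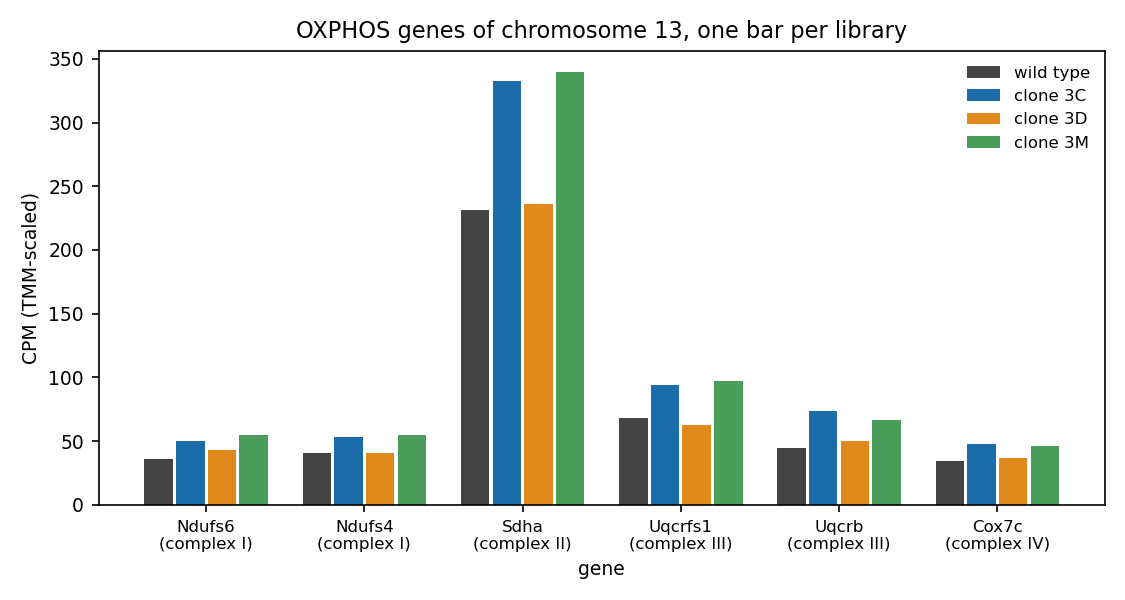
CPM of the 6 OXPHOS genes on chromosome 13, one bar per library (n = 1 each), on an axis that starts at 0. Bars of 3C and 3M exceed those of wild type and 3D for each gene, and those of 3D lie near wild type for Ndufs4 and Sdha.

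Genes that serve the same pathway but fall outside the name pattern were described by the same test. Of 46 assembly factors of complexes I to V, 45 were tested and 0 were called by edgeR at an adjusted p under 0.01. At an unadjusted p under 0.05 there were 2, where 10.3% of all genes were, and both were lower: Ndufaf7, a methyltransferase needed for complex I, with 25.9 CPM in wild type against 20.7, 19.8 and 18.1 in 3C, 3D and 3M, and Timmdc1, a complex I assembly factor of the membrane arm, with 18.2 CPM and 14.2, 14.3 and 14.7. Their log2 fold changes were −0.41 ± 0.13 and −0.34 ± 0.13 (SE; adjusted p of 0.392 and 0.451). All clones were above wild type for 7 factors and below for 14 (28.7% and 28.4% of all genes), and the median was −0.04. Of 8 subunits or partners that the pattern misses, such as Cyc1, Cycs and Ndufab1, 7 were tested, none had an unadjusted p under 0.05, and the values ran from −0.21 to 0.32.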

How the data were processed

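Read pairs were aligned by the authors with STAR to mm10 (GRCm38), and the authors deposited counts per gene, without normalization, in an unstranded and 2 stranded columns. For the gene annotation, the version was not given in the sources used here. RNA was rRNA-depleted and the library kit directional, so the reverse column was used (the forward one held between 1.26% and 1.31% as many counts). Rows that name no gene stayed out: unassigned pairs were between 23.6% and 24.7% of all, multimapping ones between 7.85% and 8.21%, ambiguous ones between 0.264% and 0.329%.

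Counts were tested with edgeR 4.0.16 in R 4.3.3 (glmQLFit, glmQLFTest, filterByExpr, TMM) over 13267 genes, with Benjamini-Hochberg adjustment at 0.01, the threshold of the study, and a coefficient of variation of 11.3% between clones. Nothing says whether the libraries were prepared together. The libraries of any pair differed by at least 7.42 chi-square units per gene, so none were copies. The step was tested on simulated data. Prior counts of 2 were added for log2 differences between a clone and wild type, which have no test (1 library a side). Positions and promoters are RefSeq's of GRCm38.p6 (81 of 84 symbols matched directly, the others by synonym), and lengths are medians of GENCODE coding transcripts (83 of 84).

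Members and lists were chosen with earlier results of these data known. Named genes were those with an unadjusted p under 0.05, the 5 largest rises and falls, those on chromosome 13, the 3 highest per length in each complex, complex II, core, F1, c-ring and isoform genes, and those not tested, and the values of 1 of them are not reported here. Alternatives were the unstranded column, DESeq2 1.42.0 and its size factors, other filters, edgeR's legacy method, no TMM, another prior count and threshold, leaving out chromosome 13, and each clone left out. Limits from a count of 0 cover counting error only.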

Additional observations from a re-analysis of the deposited data

How the results depend on the processing

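Of 513 recomputed values, 487 kept sign and call or moved by less than their spread. Calls over all genes went from 1 to 0 with a filter of 10 counts in every library, to 0 with edgeR's legacy method and to 64 with DESeq2, and ran from 0 to 420 with one clone left out, the highest without 3D. OXPHOS calls went from 0 to 1 with DESeq2 and ran from 0 to 4 with one clone left out. Those with an unadjusted p under 0.05 ran from 5 to 14 with one clone left out, beside 6 with all, and the highest was without 3D. Without the genes on chromosome 13 the median was −0.12 for complex II and −0.043 for complex III, and leaving out one clone gave complex IV medians from 0.035 to 0.10. Without TMM, the summed level was 99.2% of wild type for complex I and 107% for complex IV. Values near 0 changed sign in 5 genes: Ndufs1 to 0.0025 and Atp5a1 to 0.00087 with the unstranded column, and with one clone left out Atp5a1 ran from −0.014 to 0.0088 (0.0040 between them), Uqcrh from −0.010 to 0.071, Ndufa4 from −0.038 to 0.025 and Cox7a1 from −0.063 to 0.15. The cause of these changes was not tested. No paired analysis was possible because wild type has 1 library, so that the groups could share at most 1 replicate number, and the labels give the clones no number. The lone wild-type library limits the precision, and Cox4i2, Cox6a2, Cox7b2 and Atp5s are limited by their counts.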

Other observations

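The enzymes of the citric acid cycle and of the pyruvate dehydrogenase complex, which deliver the electrons that OXPHOS consumes, were read with the same test. All 18 were tested, 0 passed at 0.01 after edgeR's adjustment, and 3 were under 0.05 before it, where 10.3% of all genes were. Sucla2, the ADP-forming subunit of succinyl-CoA ligase, had 66.8 CPM in wild type against 94.8, 93.8 and 90.2 in 3C, 3D and 3M, which is a fitted log2 change of 0.48 ± 0.08 (SE; edgeR adjusted p = 0.191). Suclg2, the GDP-forming subunit of the same enzyme, had 62.6 CPM in wild type against 45.7, 41.5 and 48.0 in the clones, which is a fitted log2 change of −0.47 ± 0.11 (SE; adjusted p = 0.260). For each of these genes the clones did not overlap wild type, and they lay on opposite sides of it. Over the 18 enzymes, all clones were above wild type for 8 and below for 4, beside 28.7% and 28.4% of all genes. Pdhb, a subunit of pyruvate dehydrogenase, had 107 CPM in wild type against 147, 141 and 144 in the clones, which is a fitted log2 change of 0.43 ± 0.07 (SE; adjusted p = 0.191). Sucla2 and Pdhb lie on chromosome 14, where the 465 tested genes had median differences from wild type of 0.34, 0.34 and 0.35 in the clones 3C, 3D and 3M. Of these 465 genes, 229 were higher at an unadjusted p under 0.05 by edgeR, beside 5.92% of all genes. Suclg2 lies on chromosome 6. The summed level of the 18 genes was 2253 CPM in wild type compared with between 2301 and 2376 in the clones.

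Of 17 nuclear regulators of mitochondrial genes, 15 were tested and none had an unadjusted p under 0.05. The regulators whose motifs are marked in the promoters had log2 fold changes of −0.09 (Nrf1), 0.14 (Gabpa) and 0.07 (Yy1). Esrrb, an ES cell factor that also acts on mitochondrial genes, had 660 CPM on average in the clones and a log2 fold change of 0.06. Ppargc1a, the coactivator of mitochondrial biogenesis in muscle and brown fat, had no count in any library, and Esrrg had at most 1.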
